A study of Rattus norvegicus with 6 samples.

Results

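The skeletal muscle genes measured within the tendon samples were 7 of the 22250 gene IDs in the count table. They were chosen by name and not by a rule on their values, although earlier results of these data were known. They were the fibre genes Acta1, Ckm, Mb, Myh7 and Pvalb and the myogenic factors Myog and Myod1, and all 7 IDs were found and passed the filter on low counts. Their symbols came with the member list. No other ID was paired with a symbol here, so the defining markers of tendon and of other cell types could not be checked against the label, and the other muscle gene lists were left out.

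Each library was made from the injured achilles tendon of Sprague-Dawley rats, 6 weeks old at the start, on day 14 after the tendon had been transected at its midpoint and sutured at once. The tendon injury model group (3 libraries) received no drug. The celecoxib + lactoferrin treatment group (3 libraries) carried the same cut and suture and received celecoxib at 10 mg/kg, an inhibitor of cyclooxygenase-2, and lactoferrin at 2 g/kg, an iron-binding milk protein, given daily by injection where the tendon had been cut. The samples are whole pieces of healing tendon and are labelled as tendon, with an age of 14 days in the labels, whereas the methods give day 14 as the time after surgery. The uninjured and celecoxib-only groups were not analysed here. That the 3 libraries of a group came from 3 separate rats follows from the methods, whereas the labels number them as samples of a group.

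Skeletal muscle fibres contract when myosin heavy chains pull on actin filaments, with creatine kinase restoring their ATP, myoglobin holding oxygen and parvalbumin binding calcium. Slow oxidative fibres carry the myosin Myh7 and much myoglobin, and fast fibres of rodents carry parvalbumin. Myog and Myod1 are basic helix-loop-helix transcription factors that bind the E box and drive myoblasts to become fibres, and in adult rat muscle Myod1 RNA is the higher of the pair in fast muscle and Myog RNA in slow muscle. The achilles tendon joins the gastrocnemius and soleus muscles to the heel, so fibres lie at its upper end, and these fibre proteins are markers of muscle and not of tendon cells.

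The promoters of Acta1, Ckm and Myog are shown because these genes stand for a thin filament protein, a fibre enzyme and a myogenic factor whose counts varied widely between libraries. Each is the 250 bases before 1 RefSeq start (build GRCr8), and the capitals mark E boxes (CANNTG), the TATA box TATAAA and the CArG box, the site of serum response factor.
Acta1, chr19:68784195-68784444, minus strand: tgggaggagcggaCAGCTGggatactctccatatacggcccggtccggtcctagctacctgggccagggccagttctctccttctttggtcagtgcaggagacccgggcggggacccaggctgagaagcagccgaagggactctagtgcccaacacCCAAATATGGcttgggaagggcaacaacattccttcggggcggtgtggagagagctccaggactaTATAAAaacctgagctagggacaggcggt
Ckm, chr1:88189211-88189460, plus strand: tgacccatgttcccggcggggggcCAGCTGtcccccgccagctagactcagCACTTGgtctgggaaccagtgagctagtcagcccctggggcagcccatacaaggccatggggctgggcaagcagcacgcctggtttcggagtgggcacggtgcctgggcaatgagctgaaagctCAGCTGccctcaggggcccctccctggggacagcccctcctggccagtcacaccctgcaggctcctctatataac
Myog, chr13:48297226-48297475, plus strand: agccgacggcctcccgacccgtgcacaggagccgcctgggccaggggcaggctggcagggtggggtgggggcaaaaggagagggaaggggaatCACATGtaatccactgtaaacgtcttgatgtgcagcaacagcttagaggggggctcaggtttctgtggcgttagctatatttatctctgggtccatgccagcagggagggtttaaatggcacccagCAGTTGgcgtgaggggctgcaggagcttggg

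Windows were matched by symbol for 6 of the 7 genes, all but Myod1. Motifs were searched on both strands. An E box lay in 6 of the 6 windows, with 1 in Acta1, 3 in Ckm and 2 in Myog, and in 65.5% of all 33469 windows of the same length. TATAAA lay in 2 of the 6 (Acta1 and Mb) and in 12.9% of all windows. The CArG box lay in the Acta1 window, 94 bases before the start, and in 501 of all 33469 windows. The looser CArG core (CC, any 6 bases, GG), which includes every CArG box, lay in 5 of the 6 and in 65.1% of all windows. The 1 pattern searched for the MEF2 site (CTA, any 4 bases, TAG) lay in 0 of the 6 and in 3.41% of all windows. MEF2 sites spelled otherwise, such as those that do not end in TAG, were not searched. The 0 therefore does not show that these promoters lack a MEF2 site. These are matches of letters and not measured binding sites.

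The 6 libraries differed in muscle content far more than the 2 groups did, and 1 library stood apart. The 5 fibre genes took 0.929%, 1.26% and 0.338% of all counts in injury model replicates 1, 2 and 3. They took 0.000827% (95% Wilson interval 0.000737% to 0.000927%), 0.398% and 0.661% in treated replicates 1, 2 and 3. Treated replicate 1 was almost free of fibre transcripts, with 291 counts in all 5 genes against at least 116630 in each of the other 5 libraries. The remaining treated libraries lay inside the range of the injury model group, between its lowest and its second library. Treated minus injury, the mean share was -0.49 percentage points, and it was -0.31 percentage points without treated replicate 1.

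**Figure D1:**
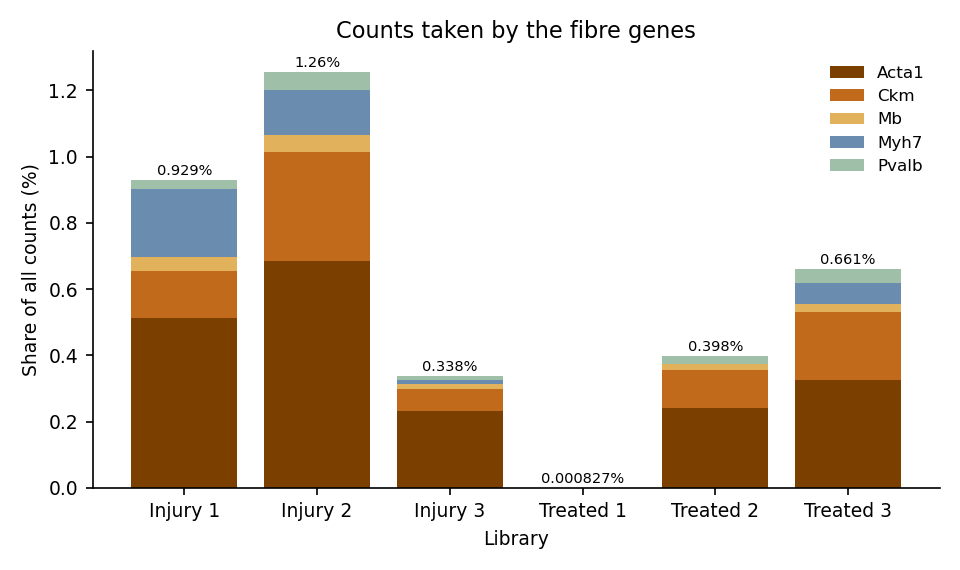
Share of all counts (%, vertical axis) taken by each fibre gene in each library, as stacked bars with the sum above each bar. Treated replicate 1 has 0.000827%, which is not visible as a bar, and the other libraries run from 0.338% to 1.26%.

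Library totals lay between 34546567 and 47181784 counts, and the 3 libraries with the most counts (injury model replicates 1 and 2 and treated replicate 3, at least 45097576 counts) were also the 3 with the largest fibre share. Depth was entered as a term in the comparison of the groups. Levels are given as CPM, counts scaled to the library total after TMM normalization. Intervals of single libraries cover counting error only. In these bulk samples, fewer fibres and less RNA per fibre cannot be told apart. How reads shared by near-identical genes were counted is not given in the sources used here. Acta1, which resembles the other actins, and Myh7, whose neighbour Myh6 is nearly identical, are therefore uncertain in that respect.

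Acta1 (ENSRNOG00000017786), the actin of skeletal muscle thin filaments, had 242607, 309493 and 80139 counts in injury model replicates 1, 2 and 3, or 5672, 6440.3 and 2375 CPM. In treated replicates 1, 2 and 3 it had 182, 83117 and 150982 counts, or 5.32, 2408 and 2996 CPM. Injury model replicate 3 and treated replicates 2 and 3 lay close together, injury model replicates 1 and 2 above them and treated replicate 1 far below. Compared with the lowest of the other 5 libraries, treated replicate 1 was 447-fold lower (counting interval 386 to 520).

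Ckm (ENSRNOG00000016837), the muscle creatine kinase that regenerates ATP, had 1565, 3088 and 680 CPM in injury model replicates 1, 2 and 3 and 0.818, 1141 and 1872 CPM in treated replicates 1, 2 and 3. The 28 counts of treated replicate 1 lay 831-fold below injury model replicate 3, the lowest of the other libraries (counting interval 575 to 1251). The order of the remaining libraries crossed the groups, with injury model replicate 2 highest and treated replicate 3 next.

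Mb (ENSRNOG00000004583), the oxygen store myoglobin, had 458, 462 and 162 CPM in injury model replicates 1, 2 and 3. It had 0.0876, 203 and 242 CPM in treated replicates 1, 2 and 3. The 3 counts of treated replicate 1 gave a ratio of 1847 to the lowest of the other libraries, with a counting interval from 632 to 8957. Injury model replicates 1 and 2 were nearly equal, and treated replicates 2 and 3 lay between them and injury model replicate 3.

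Pvalb (ENSRNOG00000006471), the calcium buffer of fast fibres, had 300.1, 513 and 135 CPM in injury model replicates 1, 2 and 3. Its values in treated replicates 1, 2 and 3 were 0.613, 225 and 394 CPM. It took the same order of libraries as Ckm. Treated replicate 1, with 21 counts, was 221-fold below the lowest of the others (counting interval 144 to 356).

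Myh7 (ENSRNOG00000016983), the slow myosin heavy chain, had 96242, 62011 and 3524 counts in injury model replicates 1, 2 and 3, or 2250.1, 1290.4 and 104 CPM. In treated replicates 1, 2 and 3 it had 57, 159 and 28891 counts, or 1.66, 4.61 and 573 CPM. Here 2 treated libraries and not 1 were near the floor of the range. Treated replicate 1 was 2.77-fold below treated replicate 2 (counting interval 2.14 to 3.65), and treated replicate 3 lay above injury model replicate 3.

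**Figure D2:**
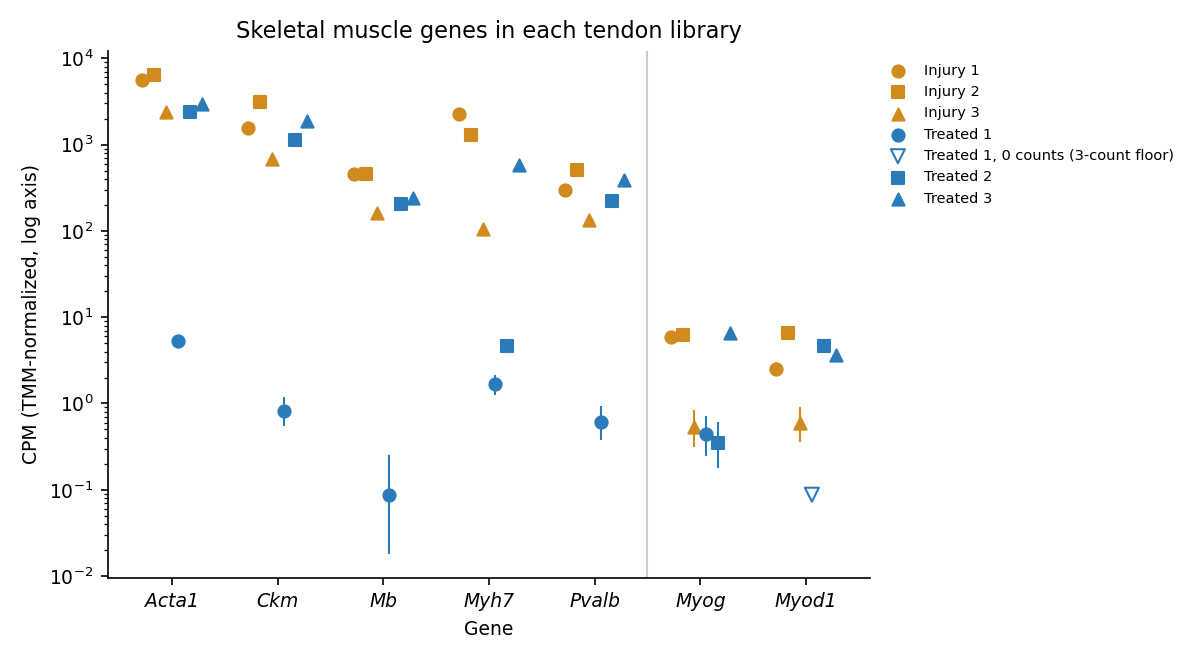
TMM-normalized CPM (vertical log axis) of each muscle gene in each library, with fibre genes left and myogenic factors right of the grey line, injury model in orange and treated in blue. Bars are exact Poisson 95% intervals of the count, and the open triangle marks 0 counts, drawn at a floor of 3 counts. Treated replicate 1 lies far below the other libraries in Acta1, Ckm, Mb and Pvalb, and is joined by treated replicate 2 in Myh7.

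The 5 fibre genes therefore fell into 2 kinds across the 5 libraries that held muscle transcripts. Without treated replicate 1, the highest library exceeded the lowest 2.71-fold for Acta1, 2.86-fold for Mb, 3.79-fold for Pvalb and 4.54-fold for Ckm, but 488-fold for Myh7. The value of Myh7 rested on treated replicate 2, since its range within the injury model group was 21.5-fold and treated replicate 3 lay inside it. Set against Ckm within the same library, which removes the amount of muscle in so far as Ckm measures it, Pvalb was nearly constant. It had 192, 166 and 199 counts per 1000 Ckm counts in injury model replicates 1, 2 and 3, and 197 and 210.5 in treated replicates 2 and 3, a range of 1.27-fold. Acta1 per Ckm ranged 2.265-fold and Mb per Ckm 2.27-fold over these 5 libraries.

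Myh7 had 1438, 418 and 154 counts per 1000 Ckm counts in injury model replicates 1, 2 and 3, and 4.04 (95% interval 3.43 to 4.72) and 306 in treated replicates 2 and 3. The range was 356-fold, which again rested on treated replicate 2: it was 9.36-fold within the injury model group, and treated replicate 3 lay inside that range. Treated replicate 2 thus held Ckm, Pvalb, Acta1 and Mb at levels within the range of the injury model group. Its Myh7 was at 4.61 CPM against 104 to 2250.1 CPM in that group. In treated replicate 1 the ratios rest on 28 Ckm counts. There the few counts gave 2036 Myh7 counts per 1000 Ckm counts (1274 to 3324) and 750.0 Pvalb counts (405 to 1369). They gave 6500 Acta1 counts (4350 to 10054.5) and 536 Myog counts (266 to 1038). All of these lay above the values of the other 5 libraries, although the Myh7 interval overlapped injury model replicate 1. Mb was lower than in the others, at 107, with an interval (20.8 to 347) that held their values, and Myod1 had 0 counts.

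Myog (ENSRNOG00000030743), the factor required for myoblasts to mature into fibres, had 249, 295 and 18 counts in injury model replicates 1, 2 and 3, or 5.82, 6.14 and 0.533 CPM. It had 15, 12 and 329 counts in treated replicates 1, 2 and 3, or 0.438, 0.348 and 6.53 CPM. The libraries fell into 3 near 6 CPM and 3 below 1 CPM, and each set held libraries of both groups. Within each set the Poisson intervals overlapped. The 3 libraries of the upper set were those with the highest Myh7 level. They were also the 3 with the most counts in all, so this split and library depth cannot be told apart.

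Myod1 (ENSRNOG00000011306), which commits cells to the muscle lineage, had 108, 318 and 20 counts in injury model replicates 1, 2 and 3, or 2.52, 6.62 and 0.593 CPM. It had 0, 161 and 182 counts in treated replicates 1, 2 and 3, or 0, 4.67 and 3.61 CPM. Treated replicate 1 was the lowest library, at least 6.76-fold below injury model replicate 3 against a floor of 3 counts, which equals 0.0876 CPM there and leaves out the counting error of the 20 counts in injury model replicate 3. Unlike Myog, Myod1 was high in treated replicate 2, second among the 6 libraries.

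The myogenic factors parted from each other in that library. Treated replicate 2 had 13.4 Myod1 counts for each Myog count (95% interval 7.47 to 26.5). The ratio was 0.434 (0.343 to 0.546), 1.08 (0.917 to 1.27) and 1.11 (0.558 to 2.23) in injury model replicates 1, 2 and 3 and 0.553 (0.459 to 0.665) in treated replicate 3. In treated replicate 1 it was 0, with an upper bound of 0.279. Treated replicate 2 was also the library with the lowest Myh7 per Ckm. The slow myosin and Myog were thus low beside Ckm, Pvalb, Mb and Myod1 in the same sample. Myog had 0.305 counts per 1000 Ckm counts there (95% interval 0.157 to 0.532). That interval overlapped the one of injury model replicate 3, at 0.785 (0.465 to 1.24). Mb, of which slow fibres carry much, had 178 counts per 1000 Ckm counts in treated replicate 2, against 150 to 293 in the injury model group. Injury model replicate 1 had the highest Myh7 per Ckm of the 5 libraries with muscle transcripts and the lowest Myod1 per Myog among them, with an interval that overlapped that of treated replicate 3. These are single libraries, and intervals here cover counting error and not the spread between rats.

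**Figure D3:**
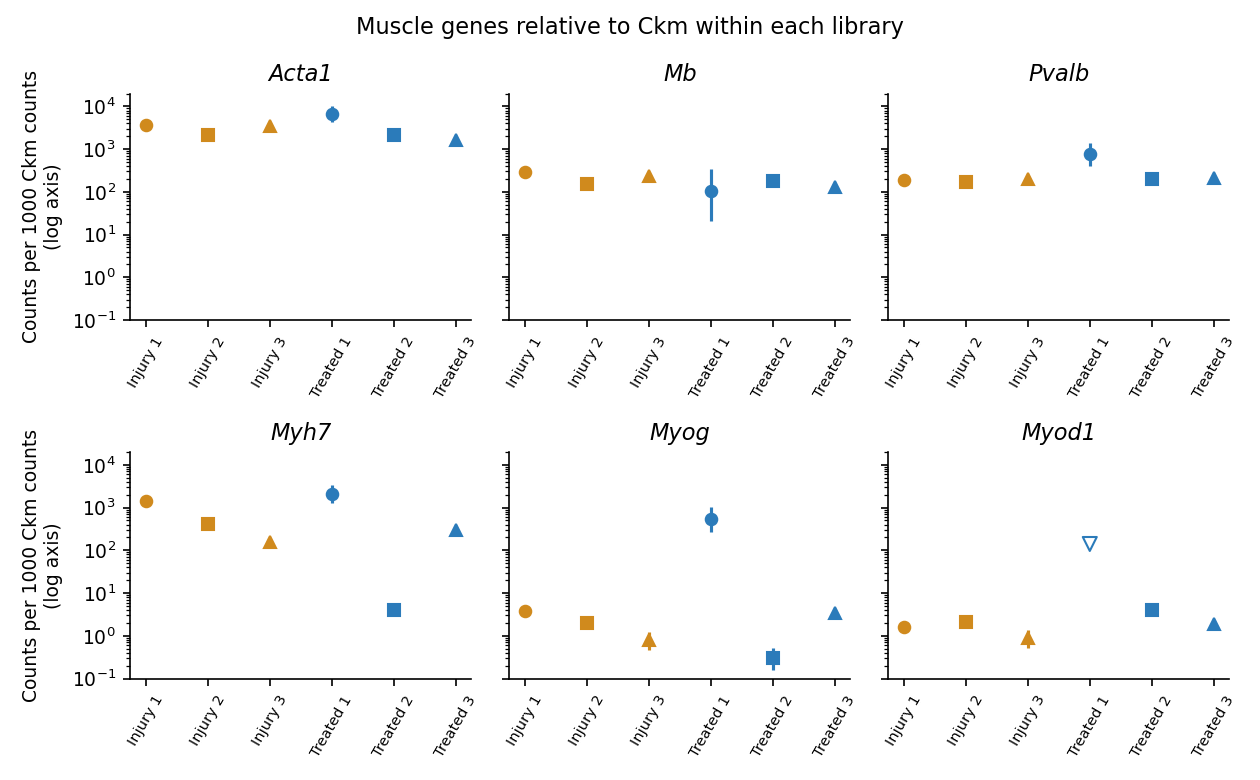
Counts of 6 muscle genes per 1000 Ckm counts (vertical log axis, shared by all panels) in each library, injury model in orange and treated in blue, with exact binomial 95% intervals. The open triangle marks the upper bound where Myod1 had 0 counts. Pvalb runs level across the 5 libraries with muscle transcripts while Myh7 falls to 4.04 in treated replicate 2. Myog is lowest there, with an interval that overlaps that of injury model replicate 3. Myod1 in treated replicate 2 is highest among these 5.

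Beside the fibre genes as a whole, the distance of both factors varied between libraries. The fibre index, the mean log2 CPM of the 5 fibre genes, was 10.26, 10.49 and 8.35 in injury model replicates 1, 2 and 3, and -0.09, 7.82 and 9.62 in treated replicates 1, 2 and 3. Myog minus this index was -7.70, -7.86 and -9.13 (log2) in the injury model group and -0.94, -9.15 and -6.91 in the treated group. Myod1 minus the index was -8.89, -7.75 and -8.99 in the injury model group and -4.25, -5.58 and -7.75 in the treated group. These differences are compared between libraries and not as levels of 2 genes, since no lengths enter them. Treated replicate 1 was the highest in both because its fibre index was near 0 while Myog kept 15 counts and Myod1 was at 0, where the log2 value is set by the prior count of 2. Without that library the treated minus injury difference was 0.20 for Myog, against 2.56 with it, and 1.88 for Myod1, against 2.68.

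The comparison of the groups asked whether treatment changed these genes. All 7 had a lower fitted value in the treated rats (Myod1 turned higher without treated replicate 1, without injury model replicate 2 or with depth as a term), but 0 of 7 passed an adjusted p-value of 0.05 in edgeR's quasi-likelihood test, and likewise 0 of 7 an unadjusted one. Of all 15122 genes tested, 0.00661% passed the adjusted threshold and 2.61% the unadjusted one. DESeq2 also called 0 of the 6 for which it gave a p-value, leaving Myog empty. The groups overlapped in all 7 genes, whereas they did not overlap in 7.80% of all genes. With log2 of the library total as a term, Myh7 alone of the 7 passed the unadjusted threshold, beside 1.53% of all genes, with a log2 fold change of -3.37 and a standard error of 1.06 (adjusted p = 0.9995, edgeR). In that fit Myog had a log2 fold change of -0.24 with a standard error of 0.36. The standard errors of the remaining muscle genes there lay between 1.93 and 2.26. Without that term, the standard errors of the 7 log2 fold changes lay between 1.42 and 2.44, so that a change of several fold was not detectable with this spread.

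Myh7 had the log2 fold change farthest from 0, whereas in CPM the group means lay farthest apart for Acta1. Its level was 1215 ± 1075 CPM (SD, n = 3) in injury model rats and 193 ± 329 CPM (SD, n = 3) in treated rats, and the log2 fold change of -2.65 had a standard error of 2.44 (adjusted p = 0.998, edgeR). Acta1 stood at 4829 ± 2159.9 CPM (SD, n = 3) without and 1803 ± 1584 CPM (SD, n = 3) with treatment, a log2 fold change of -1.42 with a standard error of 1.78 (adjusted p = 0.998, edgeR). The log2 fold changes of the others were -1.28 for Mb, -0.82 for Ckm, -0.76 for Myog, -0.61 for Pvalb and -0.24 for Myod1, with standard errors between 1.42 and 1.99. The median over all genes was 0.0067.

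Without treated replicate 1, the log2 fold change of Pvalb was -0.03 (standard error 0.56) and that of Ckm -0.24 (standard error 0.62). Acta1 was at -0.84 (standard error 0.47) and Mb at -0.70 (standard error 0.46) (adjusted p = 0.999 for both, edgeR). Myh7 stayed at -2.07 (standard error 2.33), and Myod1 turned to 0.34 (standard error 0.88). In this fit 0 of the 7 were called at an unadjusted p-value under 0.05, beside 1.83% of all genes, and 0 at an adjusted one. The estimates of Pvalb and Ckm were near 0, and their standard errors leave room for a change in either direction.

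**Figure D4:**
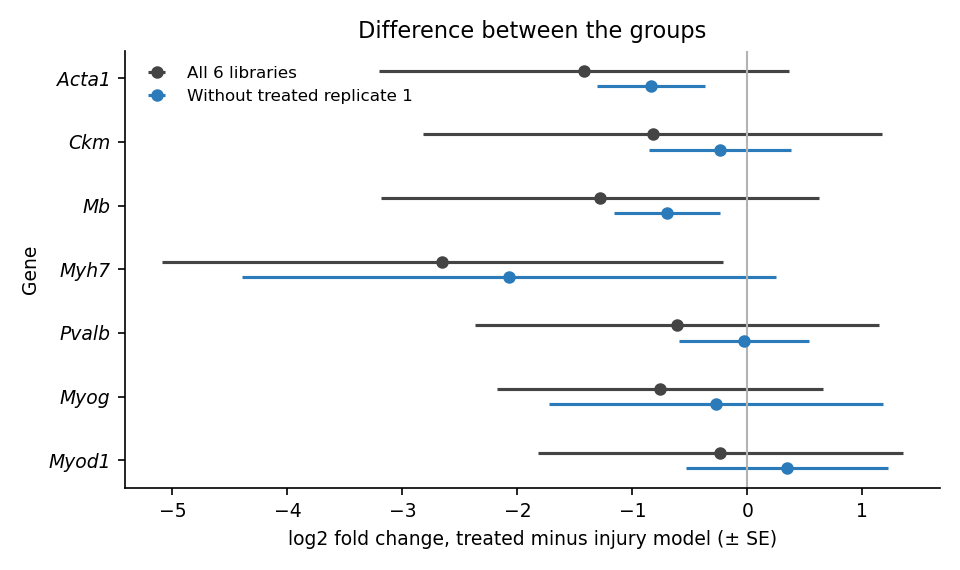
Log2 fold change (treated minus injury model, horizontal axis) of each muscle gene from edgeR, as points with bars of 1 standard error, with all 6 libraries in grey and without treated replicate 1 in blue. Bars shorten for Acta1, Ckm, Mb, Pvalb and Myod1 without that library, and remain long for Myh7 and Myog.

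Treated replicate 3 had the opposite place. Without it, 2 of the 7 genes passed the unadjusted threshold of 0.05 in edgeR, beside 5.83% of all genes (890 of 15273), and 0 of the 7 the adjusted one, beside 6 of all genes. They were Myh7 with a log2 fold change of -8.60 (adjusted p = 0.82, edgeR) and Myog with -3.40 (adjusted p = 0.82, edgeR). Treated replicates 1 and 2 were the 2 lowest libraries in Myh7, and treated replicate 3 had 573 CPM of Myh7 and the highest Myog value of the 6.

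Over all 6 libraries the muscle genes were among the more variable genes tested, and for Acta1, Ckm, Mb and Pvalb this rested largely on treated replicate 1. The SD of log2 CPM (prior count 2) over the 6 libraries was 3.89 for Acta1, 4.44 for Ckm, 4.53 for Mb, 4.34 for Myh7 and 3.63 for Pvalb, at percentiles from 99.5 to 99.9 of all genes tested. It was 2.03 for Myog (97.4th percentile) and 2.66 for Myod1 (98.5th percentile). The median over all genes was 0.325. Without treated replicate 1, the SD was 0.69 for Acta1 and for Mb, 0.74 for Pvalb and 0.81 for Ckm, at percentiles from 81.8 to 86.1, against a median of 0.334 over all genes. It stayed at 3.60 for Myh7 (99.5th percentile) and 2.03 for Myog (98.3rd percentile), and was 1.31 for Myod1 (94.2nd percentile). Within the injury model group alone, where no library lacked muscle transcripts, the SD was 0.78 for Acta1, 0.87 for Mb, 0.97 for Pvalb and 1.09 for Ckm, and it was 2.36 for Myh7, 1.95 for Myog and 1.70 for Myod1.

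The low fibre genes of treated replicate 1 were part of a wider set. Of 12581 genes with at least 1 CPM in each of the other 5 libraries, 134 (1.07%) were at least 10-fold below the lowest of those 5 in that library. The 134 held 4 of the 5 fibre genes, all but Myh7, while Myog and Myod1 were below 1 CPM in another library and were not compared. In each of the other libraries this number lay between 7 and 19. Which cell types or genes make up the remainder could not be named without symbols.

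Genes with a pattern like that of the fibre genes were many. Across the 6 libraries, 341 of 15115 other genes had a Pearson r of at least 0.9 between their log2 CPM and the fibre index, and 69 had one of at most -0.9. The libraries share their depth and normalization in such values, and treated replicate 1 weighs heavily in each. The highest r was that of ENSRNOG00000019278, at 0.998 over 6 libraries (two-sided exact permutation test, p = 0.0028, 0.47 after adjustment over the 15115 genes), with Spearman's rho of 0.943 (p = 0.0167 by exact permutation, adjusted 0.45). ENSRNOG00000056493 had an r of 0.997 (exact permutation p = 0.0014, the smallest these permutations can give, adjusted 0.44) and a rho of 1 (exact permutation p = 0.0028, adjusted 0.45). Without the 2 libraries farthest from the median fibre index, treated replicate 1 and injury model replicate 2, r was 0.974 and 0.952 over 4 libraries. Both genes were picked for their r over all 6 libraries, these 4 included, so these values are no separate test of likeness. ENSRNOG00000019278 had 0.117 CPM in treated replicate 1 and 9.13 to 36.0 CPM in the other libraries, and ENSRNOG00000056493 had 1.58 CPM there and 196 to 837 CPM in the others.

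Entering the muscle content into the comparison of the groups changed which genes were called. With the fibre index of each library as a term, 263 genes passed the unadjusted threshold in edgeR, against 395 without it, and 122 were in both lists, or 46.4% of the 263 and 30.9% of the 395. At an adjusted p-value the count was 0 against 1. The index was -0.09 in treated replicate 1 and 7.82 to 10.49 in the other libraries, so the term largely marks that library. It also takes a residual degree of freedom. The effects of muscle content, of that library and of lower power on the calls cannot be told apart. Leaving the 7 muscle genes out of the table gave 395 genes again.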

How the data were processed

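Messenger RNA was measured in 6 tendon libraries, 3 of each group, grouped by their labels. Per the methods, total RNA was sequenced by Illumina, reads of low quality were discarded, and HISAT2 placed the others on the rat genome. The labels list a human build instead, whereas the IDs are rat IDs. The values deposited by the authors are raw, unnormalized counts for each Ensembl ID. The counting tool and its strand setting are not given in the sources used here.

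Groups were compared with edgeR 4.0.16 (R 4.3.3), using TMM, filterByExpr, a robust quasi-likelihood fit and p-values adjusted by Benjamini-Hochberg over 15122 genes, with DESeq2 1.42.0 as an alternative. Standard errors were derived from the log2 fold change and its F statistic. Log2 CPM used a prior count of 2, and 0 counts a floor of 3. No 2 libraries were duplicates (lowest chi-square per degree of freedom of any pair, 86.9).

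The members and lists were chosen with earlier results of these data known. All 7 members are named, and of other genes the 2 IDs most like the fibre index. Other gene lists, tendon markers included, were not used, since no reference here pairs their symbols with IDs. Promoter windows came from RefSeq (GRCr8). The full CArG box was added after the windows had been seen.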

Additional observations from a re-analysis of the deposited data

How the results depend on the processing

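Results were recomputed with another test, normalization or filter, with a depth term, with a replicate block and with each library left out in turn. Of 96 alternative fits of single muscle genes, 92 kept their direction, of which 91 stayed above an adjusted p-value of 0.05 and 1 (Myog in DESeq2) had none. The 4 that reversed were all of Myod1 (main value -0.24): 0.54 with log2 of the library total as a term, 0.82 without injury model replicate 2, and 0.34 without treated replicate 1, both in edgeR and in DESeq2 (the last chosen after seeing the data). With each library left out in turn, Myod1 ran from -0.84 to 0.82. Why these moved was not tested.

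The number of muscle genes with an unadjusted p-value under 0.05 was 0, and it was 1 with log2 of the library total as a term (Myh7, log2 fold change -3.37, standard error 1.06). Across the fits without 1 library each it ran from 0 to 2. Of all genes, 395 had an unadjusted p-value under 0.05, 232 with log2 of the library total and 263 with the fibre index as a term, and 226 (without injury model replicate 1) to 890 (without treated replicate 3) across the fits without 1 library each. At an adjusted p-value the count was 1 in edgeR, 3 without a filter, 26 with DESeq2, 34 with DESeq2 without treated replicate 1, and 1 to 9 with each library left out. It was 0 with at least 10 counts in every library (407 unadjusted), the replicate block (326 unadjusted), the depth term and the fibre index.

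No pairing of the samples by replicate number was seen, although 3 libraries per group are too few to exclude it. Deviations from the group means correlated between -0.267 and 0.0568 for the same number and between -0.305 and 0.301 for other pairs. With the replicate block, the log2 fold change of Myh7 was -7.41 (standard error 5.56) and 0 of the 7 genes were called.

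The median SD of the 7 genes was 3.89 log2 units and ran from 0.814 (without treated replicate 1) to 4.31. The mean fibre share, treated minus injury, was -0.488 percentage points, ran from -0.739 to -0.280 with each library left out, and was -0.199 without Acta1. With a prior count of 0.5, Myod1 minus the fibre genes was 2.09 (treated minus injury), against 2.68. Depth limits Myog and Myod1, with at most 329 counts in a library.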
